A study of Drosophila melanogaster with 2 samples.

Results

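Of the 1491 promoter summits of the GATA factor GATAe in the Drosophila embryo, 449 had no GATA core within 50 bp, and they are described here. A summit is the position of highest enrichment in a peak, and a promoter summit is one within 500 bp of an annotated transcription start site (TSS). The core was the word GATA on either strand, lying whole within 50 bp to either side of the summit. The 449 summits were 30.1% of the promoter summits (exact binomial 95% interval 27.8 to 32.5%) and came from 3032 peaks on the chromosome arms. They fell in 428 merged places, since some peaks overlapped one another. The other 1042 promoter summits held a core and serve as the main comparison.

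The peaks came from chromatin immunoprecipitation and sequencing (ChIP-seq) of whole embryos aged 0 to 24 h, from transgenic flies in which GATAe was fused to eGFP, a green fluorescent protein. The fusion was precipitated with an antibody against GFP, and there was 1 group with 2 biological replicates. Whole embryos mix all tissues and stages of embryogenesis, so a peak does not say in which cells the fusion was bound. The labels give the strain as GATAe-GFP, with an insertion that targets GATAe, and they do not say which promoter drives the fusion or whether the native gene was still present.

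GATA factors are zinc-finger transcription factors that contact DNA mainly through the core GATA, usually inside the longer site WGATAR, where W stands for A or T and R for A or G. GATAe is expressed in the endoderm and its descendant, the midgut, where it helps to start and to maintain the gut programme. ChIP-seq recovers DNA that a factor touches directly, DNA it reaches through other proteins, and DNA that is open and easily recovered, and a peak alone does not tell these apart.

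Windows of 8 of the strongest summits, none touching an annotated exon, are printed first, as the DNA that carries the result. Each window is read 5′ to 3′ on dm6, and capitals mark the words GATT, GATC or GATG on either strand, which differ from the core in their last letter.
CG7601, chr3R:29736798-29736898, plus strand: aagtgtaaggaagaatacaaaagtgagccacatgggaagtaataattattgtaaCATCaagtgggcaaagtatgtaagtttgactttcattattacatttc
CG18549, chr3R:12449114-12449214, plus strand: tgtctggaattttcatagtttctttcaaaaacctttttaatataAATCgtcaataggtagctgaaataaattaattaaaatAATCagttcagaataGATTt
CG13390, chr2L:8376852-8376952, plus strand: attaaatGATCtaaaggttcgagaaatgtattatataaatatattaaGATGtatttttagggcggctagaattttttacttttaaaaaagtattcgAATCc
CG18428, chr3R:24109168-24109268, plus strand: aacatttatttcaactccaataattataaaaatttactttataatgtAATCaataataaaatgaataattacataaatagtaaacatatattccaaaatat
CG31145, chr3R:23669812-23669912, plus strand: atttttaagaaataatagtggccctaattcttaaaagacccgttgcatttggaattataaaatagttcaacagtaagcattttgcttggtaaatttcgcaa
CG32115, chr3L:12913743-12913843, plus strand: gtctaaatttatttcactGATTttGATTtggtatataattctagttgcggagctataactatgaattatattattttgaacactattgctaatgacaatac
CG3552, chr3L:9457786-9457886, plus strand: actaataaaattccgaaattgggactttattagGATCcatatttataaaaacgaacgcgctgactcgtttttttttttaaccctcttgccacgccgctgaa
SLIRP2, chr3R:8650932-8651032, plus strand: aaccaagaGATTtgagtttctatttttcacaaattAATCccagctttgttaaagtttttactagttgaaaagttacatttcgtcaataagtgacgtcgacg
Long runs of A and T fill most of these windows, and that of CG31145 held none of the words in capitals. The G and C content was 13.9% at CG18428, 22.8% at CG18549, 31.7% at CG7601 and 36.6% at CG3552.

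In other windows the core stood just past the limit. At mirr (an Iroquois homeodomain factor), Eogt (a glycosyltransferase that modifies extracellular EGF domains) and dnc (the cAMP phosphodiesterase dunce) the nearest core ended 52 or 53 bp from the summit. They were among the strongest with a core within 55 bp and no exon in the window, chosen after their values were seen. Here 141 bp are printed and capitals mark GATA on either strand.
mirr, chr3L:12693081-12693221, plus strand: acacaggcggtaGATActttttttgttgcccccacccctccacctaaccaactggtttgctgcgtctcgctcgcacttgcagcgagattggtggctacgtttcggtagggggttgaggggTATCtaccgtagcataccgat
Eogt, chr2L:2380929-2381069, plus strand: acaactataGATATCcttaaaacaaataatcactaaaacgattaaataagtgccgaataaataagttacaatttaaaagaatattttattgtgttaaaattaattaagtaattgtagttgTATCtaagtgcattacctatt
dnc, chrX:3255591-3255731, plus strand: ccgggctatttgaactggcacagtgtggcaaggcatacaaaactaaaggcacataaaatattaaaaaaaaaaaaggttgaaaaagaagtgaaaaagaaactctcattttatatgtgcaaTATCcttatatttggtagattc
The summits of mirr, Eogt and dnc had signals of 151, 150 and 132. The signal is the authors' own measure of peak strength, comparable within a list only.

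Summits without a core were about as strong as those with one. In the conservative list, which pairs the replicates, their signals ran from 2.26 to 922 with a median of 93.9 (quartiles 71.6 and 144). Summits with a core had a median of 97.4 (quartiles 76.7 and 137), a ratio of medians of 0.964. In the ranked list of replicate 1, the overlapping peaks had medians of 56.9 without a core and 54.2 with one. In replicate 2 the order was the other way round, at 44.8 and 48.5. The ratios of 1.05 and 0.924 thus lay on either side of 1, so the 2 replicates did not share a direction. In the upper 50% of peaks by signal the ratio was 1.10. Overlapping summits can share a matched replicate peak, so the replicate medians count some peaks more than once. With 1 group and peaks that are no replicates of one another, no test was made.

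Summits without a core were found among weak and strong peaks. With the promoter summits in 5 equal groups by signal, it was 35.8% in the weakest (95% interval 30.4 to 41.5%) and 24.2% in the middle (19.4 to 29.4%). In the strongest group, with signals of 153 to 958, it was 31.2% (26 to 36.8%). Among the 100 strongest peaks of the whole list, 22 were promoter summits without a core and 46 were promoter summits with one. Of all 3032 peaks, 449 were promoter summits without a core and 1042 were promoter summits with one. Both kinds thus made up more of the 100 strongest peaks than of the whole list.

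Weak peaks made up more of the summits without a core. Signals under 20 were found at 48 of them, or 10.7% (7.99 to 13.9%), against 4.51% (3.33 to 5.95%) of summits with a core. All 48 overlapped another peak of the same list, as did 46 of the 47 such summits with a core.

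**Figure D1:**
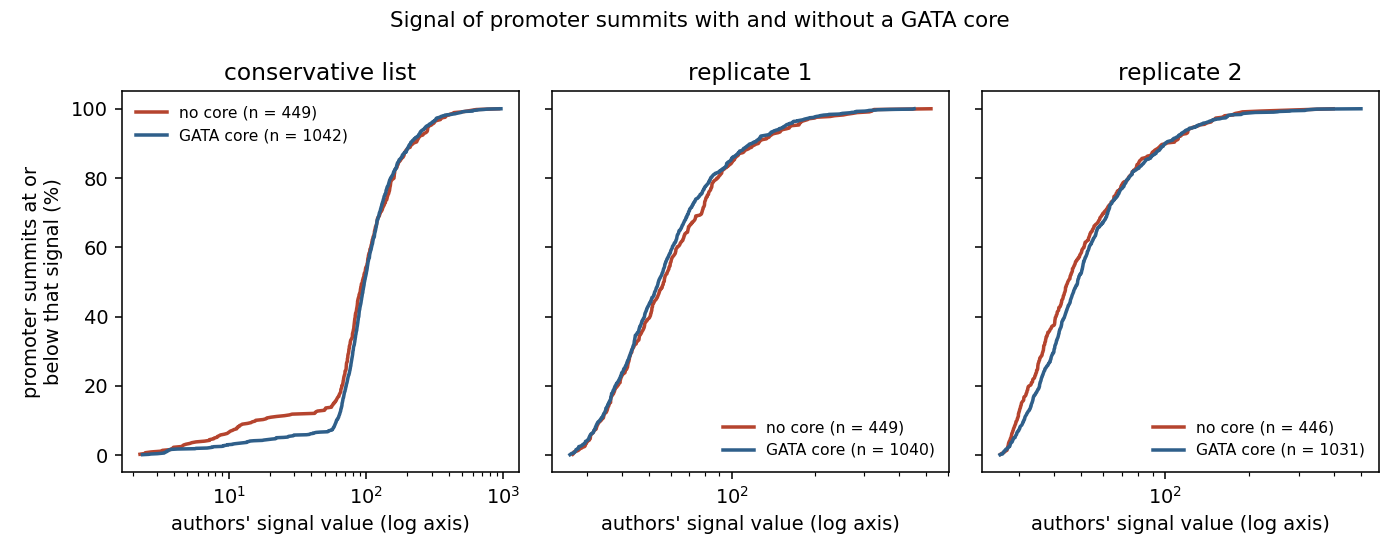
Cumulative share of promoter summits (vertical axis, %) against the authors' signal value (horizontal log axis) in the conservative list and in the ranked list of each replicate, for summits without and with a GATA core. The curves nearly coincide from the medians of 93.9 and 97.4 upward in the conservative list, and differ in its low tail, where 10.7% and 4.51% lay under 20.

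Support by the replicates was as follows. Of the 449 summits, 346 (77.1%, 72.9 to 80.9%) overlapped a thresholded peak of replicate 1 and 243 (54.1%, 49.4 to 58.8%) one of replicate 2. For summits with a core these shares were 75.4% (72.7 to 78.0%) and 60.4% (57.3 to 63.3%). Both replicates covered 48.1% (43.4 to 52.8%) of summits without a core and 51.7% (48.6 to 54.8%) of those with one. Neither covered 16.9% and 15.9%. The replicate lists held 2479 and 1822 thresholded peaks. Across the 446 summits with a ranked peak in both replicates, the 2 signals had a Spearman correlation of 0.658, against 0.645 over 1029 summits with a core. Both values are descriptions over peaks of the same 2 libraries. Overlapping summits can share a matched replicate peak, which then counts more than once.

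At most of these places the replicates' own summits lacked a core too. In replicate 1 the nearest overlapping ranked peak had no core within 50 bp of its own summit at 344 of 449 places (76.6%, 72.4 to 80.5%). In replicate 2 this held at 334 of 446 (74.9%, 70.6 to 78.8%). Both replicates' own summits lacked a core at 292 places (65.5%, 60.9 to 69.9%), and both held one at 62 (13.9%, 10.8 to 17.5%). Where the conservative summit had a core, both replicate summits lacked one at 3.21% (2.22 to 4.47%). The replicate summits lay a median of 20 and 28 bp away. Windows shifted so little mostly cover the same bases that the rule chose for holding or lacking a core. The rule itself thus sets much of these shares, and they are no separate support. These lists also share their reads with the conservative list, so they are not independent of it.

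The low tail differed here. Both replicate summits held a core at 28 of the 48 places with signals under 20 (58.3%, 43.2 to 72.4%), but at 34 of 398 others (8.54%, 5.99 to 11.7%). With signals of 20 or more, 280 of 398 (70.4%, 65.6 to 74.8%) lacked a core at both. This division at 20 was chosen after the data were seen. All 48 overlapped another peak of the list, and the replicate peak matched to them can be that of the neighbour. A summit without a core at 7.24, for instance, had the same replicate values, 125 and 91.2, as one with a core at 210. The cores counted at the 48 can thus be those at a neighbour's summit.

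The 20 strongest summits without a core were named by the nearest protein-coding TSS. The strongest lay 30 bp upstream of Ugalt, which carries UDP-galactose into the Golgi. Its signal was 922, second in the whole list, with 523 in replicate 1 and 399 in replicate 2, where it ranked 1 and 2. The summit at Sox14, an HMG-box factor of the ecdysone response, had 587, with 322 and 261 in the replicates. At PNPase, a mitochondrial RNA exonuclease, the signal was 501, with 313 and 189. All 3 places were high in both replicates.

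Fkbp14, a prolyl isomerase of the endoplasmic reticulum, had 429 in the conservative list, 260 in replicate 1 and 163 in replicate 2. GstE13, a glutathione S-transferase, had 409, with 234 and 175. Lpin, the phosphatidate phosphatase of fat synthesis, had 314, with 176 and 131. Sesn, a stress-induced inhibitor of TOR signalling, also had 314, with 163 and 146. The gene cu, which encodes Nocturnin, had 317, with 189 and 121.

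Of the others, CG5096 (634), CG7601 (543), CG18549 (435) and CG13390 (403) were above 400. CG4004 (383), CG18428 (379), CG31145 (376), CG1888 (351), CG8320 (348), CG32115 (348), CG3552 (330) and CG8360 (309) were above 300. The nearest TSS to the CG4004 summit was in fact that of lncRNA:CR44619, 470 bp away, with the CG4004 TSS at 5080 bp. At all of the 20 but CG5096 (320 and 321) the value in replicate 1 was above that in replicate 2, but the lists are not on one scale.

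Among these 20, 18 had no core at either replicate's own summit. A core ended within 100 bp at 10 of them, and the whole peak held none at 8. Thresholded peaks of both replicates covered 19. The exception was the summit at CG18428, which is also within 500 bp of a TSS of eIF4EHP, a cap-binding repressor of translation. It was in neither thresholded list, although it ranked 39 in the ranked list of replicate 1 and 62 in that of replicate 2, with signals of 226 and 159.

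Just past the first 50 bp, GATA cores were more frequent around these summits than around other windows without one. Distance here runs to the far end of the nearest core. It was 51 to 100 bp for 257 of the 449 (57.2%, 52.5 to 61.9%). The first comparison was 495 windows without a core centred 500 bp to either side of the same summits, where the share was 39.8% (35.5 to 44.3%). The second was 5469 windows without a core at promoters with no peak, where it was 49.2% (47.9 to 50.5%). The median distance was 92.0 bp, against 125 and 102 bp. The nearest ring, 51 to 75 bp, held the core at 37.0% (32.5 to 41.6%), 24.4% (20.7 to 28.5%) and 30.4% (29.2 to 31.6%). The intervals of the summits did not overlap those of either comparison in these rings, and they cover counting error only. Where none lay within 100 bp, a core within 150 bp was found at 53.1% (45.8 to 60.3%), 38.3% (32.7 to 44.0%) and 43.7% (41.8 to 45.5%). The DNA of the summits was also richer in A and T, with a median G and C content of 35.6% against 47.5% and 39.6%, and the part of base composition in these shares was not tested.

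**Figure D2:**
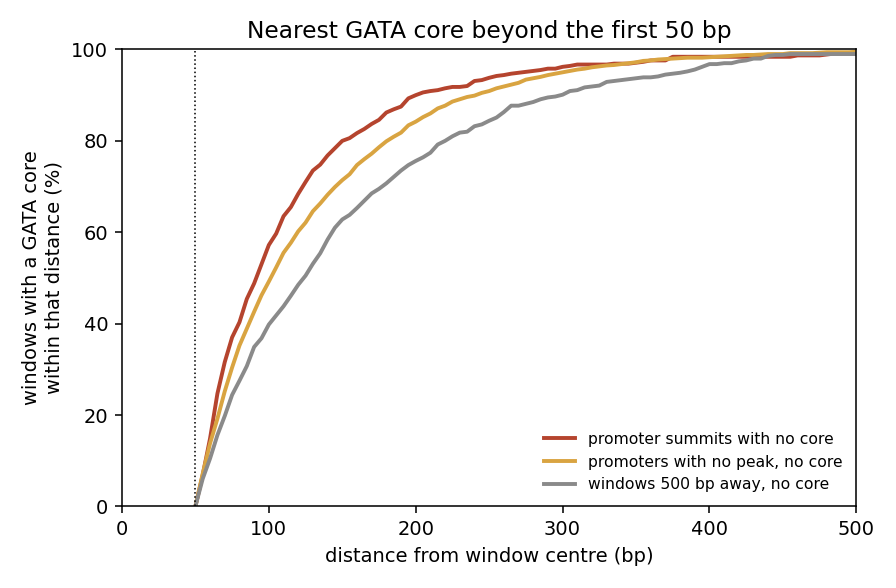
Share of windows with a GATA core within a given distance of the centre (vertical axis, %, against distance in bp) for the 449 summits without a core, for windows without a core 500 bp away, and for promoters with no peak. The dotted line marks the 50 bp limit of the rule, and the line of the summits is the highest at 100 bp, at 57.2% against 39.8% and 49.2%.

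Having no core in the first 50 bp was itself less frequent at summits than elsewhere. It was found at 30.1% of promoter summits and at 25.8% (23.7 to 28.1%) of summits farther from a TSS. It was found at 47.5% (46.6 to 48.4%) of 11520 promoters with no summit within 2 kb. In the windows 500 bp to either side of all promoter summits it was 53.3% (51.4 to 55.1%).

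At 90 summits (20%, 16.4 to 24.1%) no core lay within 150 bp, and at 17 none lay within 300 bp. These 90 had a median signal of 96.1, close to the 93.9 of the 359 with a core in that range. Of the 89 with a ranked peak in both replicates, 78 (87.6%, 79.0 to 93.7%) had no core at either replicate's summit. A replicate summit within 100 bp of such a place could not have a core within 50 bp, so the choice itself largely fixes this share. GstE13 and CG31145 led the 90, with the nearest core 371 and 216 bp away. RluA-1, a pseudouridine synthase gene, had its nearest core at 562 bp and a signal of 280, with 174 and 111 in the replicates. Over the whole deposited peak, 82 of the 449 (18.3%, 14.8 to 22.2%) held no core. No WGATAR lay within 150 bp of 55% (50.3 to 59.7%), against 20.9% (18.5 to 23.5%) of summits with a core, a gap that the rule itself widens.

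At the limits of the rule, the core ended 51 bp from the summit at CG2614, spict and Rgl, with signals of 96.5, 96.4 and 90.5. It ended at 50 bp, which kept them out, at CG9338, lncRNA:CR45251 and vsg, with 144, 109 and 100. In all, 31 summits had their core at 51 to 55 bp and 51 promoter summits had it at 46 to 50 bp. At the TSS limit, Gs2 (497 bp, signal 103), Cdc42 (493 bp, 69.1) and Eip63F-1 (488 bp, 235) were inside. The summits at cnc (501 bp, 5.80), CG17896 (504 bp, 288) and dlg1 (507 bp, 68.8) were outside.

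The position at the promoter was much the same with and without a core. Summits without one had a median position of -102 bp, upstream of the TSS (quartiles -186 and 3 bp). Those with one had a median of -86.0 bp. Upstream summits were 74.2% (69.9 to 78.2%) and 75% (72.2 to 77.6%). A TSS on the other strand lay within 1 kb of 40.8% (36.2 to 45.5%) and of 37.1% (34.2 to 40.2%), and for all protein-coding genes the share was 40.1%. The nearest TSS was that of a protein-coding gene at 419 summits, and of a noncoding RNA at 30. It was a tRNA gene at none of the 449, which allows a share of up to 0.818%. By annotation, 195 summits were intergenic, 130 in an intron and 124 in an exon.

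**Figure D3:**
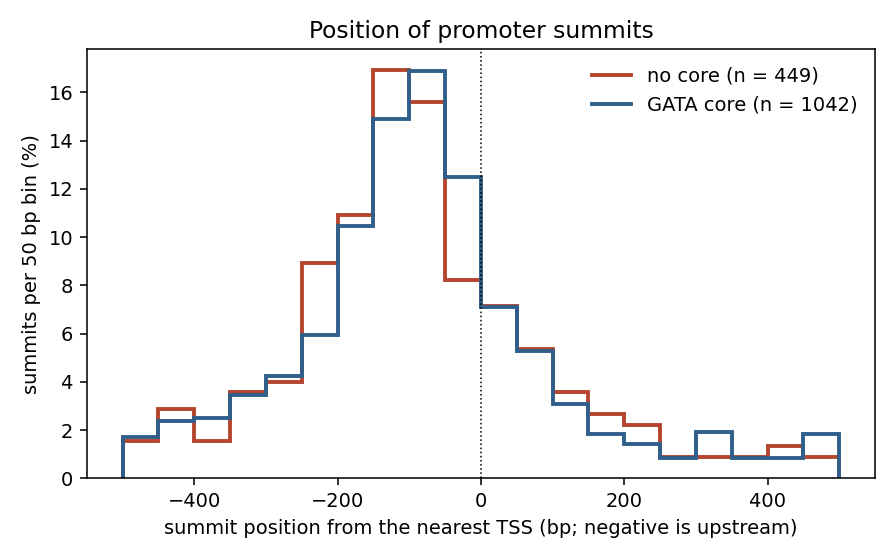
Summits per 50 bp bin (vertical axis, % of the group) against signed distance from the nearest TSS in bp, negative upstream, for 449 summits without and 1042 with a GATA core. Both groups peak upstream of the TSS, with medians of -102 and -86.0 bp.

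The share without a core was 33.8% on X, 30.1% on 2L, 29.3% on 2R, 28.6% on 3L and 29.5% on 3R. Chromosome 4 had 2 of 3 promoter summits without one. Another promoter or distal summit that did hold a core lay within 500 bp of 62 summits (13.8%, 10.8 to 17.3%), against 9.60% (7.88 to 11.5%) of summits with a core. An overlap with another peak of the list was found at 22.9% (19.1 to 27.1%) and 15.5% (13.4 to 17.9%).

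The DNA at these summits was rich in A and T. The median G and C content within 50 bp was 35.6%, against 40.6% at promoter summits with a core, 39.6% at promoters with no peak and 47.5% in the windows 500 bp away. Under 30% G and C were 33.4% (29.1 to 38.0%) of the summits, and the other shares were 22.6% (20 to 25.2%), 25.1% (23.9 to 26.2%) and 9.09% (6.71 to 12%) in the same order. A core is itself rich in A and T, and windows chosen for lacking it were still poorer in G and C than those with it.

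Stronger summits without a core had less G and C. From the weakest to the strongest of the 5 signal groups, the median content was 44.6, 39.6, 32.7, 30.7 and 30.7%. For summits with a core it was 42.6, 40.6, 42.6, 39.6 and 36.6%. Windows under 30% were 7.48% (3.28 to 14.2%) of the weakest group without a core and 48.4% (37.9 to 59.0%) of the strongest. With a core these were 11.5% (7.32 to 16.8%) and 35.1% (28.6 to 42.1%). Leaving out signals under 20, the weakest group without a core still had a median of 43.6% (n = 59). The Spearman correlation of content with the conservative signal was -0.370 over the summits without a core and -0.139 over those with one. In the replicates' ranked lists it was -0.307 and -0.194 without a core, and -0.147 and 0.00737 with one. These correlations are descriptions over windows whose signals come from the same 2 libraries. Base composition also bears on amplification and alignment, and its part in the signal was not tested.

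**Figure D4:**
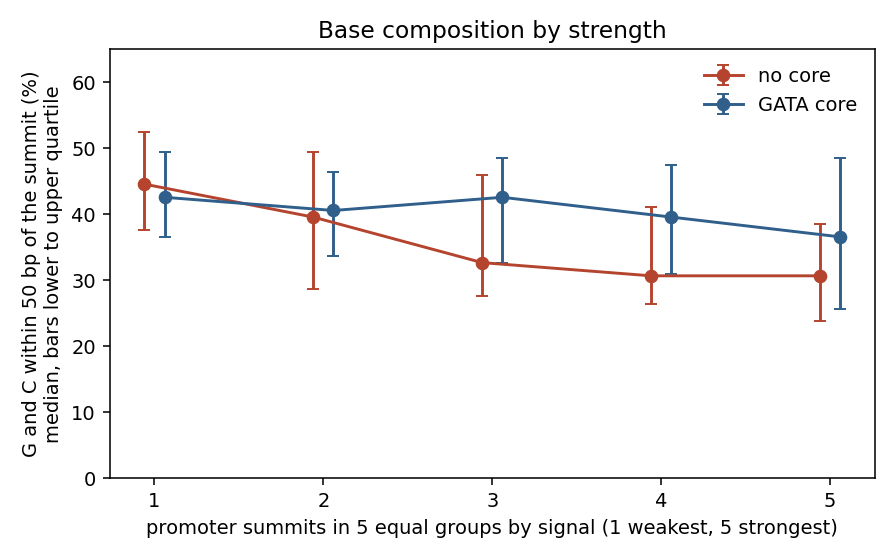
G and C content within 50 bp of the summit (vertical axis, %, median with bars from the lower to the upper quartile) in 5 equal groups of promoter summits by signal (horizontal axis, 1 weakest). Without a core the median goes from 44.6% to 30.7%, and with a core from 42.6% to 36.6%.

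Against windows 500 bp away, many short words differed: those more frequent at the summits were mostly A and T, and those less frequent mostly G and C. Each 6-mer was tested for presence with Fisher's exact test (two-sided, Benjamini-Hochberg adjusted over 2032 words), with 1 summit per merged place. Of these words, 109 were more frequent at the summits (5.36% of those tested) and 75 were less frequent (3.69%), with adjusted p-values under 0.05. Of the 109, 102 held at most 1 G or C, and of the 75, 57 held at least 4. The leading word was ATTTTA, at 29.4% of summits and 10.3% of windows (adjusted p = 2.78e-10 by Fisher's exact test). The TATA box word TATAAA was at 22.4% and 8.08% (exact test, adjusted p = 3.30e-07).

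Against promoters with no peak, few words passed the test. These windows were placed at the summits' median position of -102 bp from the TSS. None of the 2032 words was more frequent at the summits by Fisher's exact test (0%), although 108 had an unadjusted p under 0.05, and no other tool was run. Less frequent were 2 words (0.0984%). By the exact test they were AGCCGA, at 1.17% of summits and 5.96% of promoters (adjusted p = 0.00375), and CGATGA, at 0.234% and 3.42% (adjusted p = 0.0201). Of the 109 words more frequent than in windows 500 bp away, 108 had the same direction here and 0 were called, with a median ratio of 1.25 against 2.31 there. Both comparisons share the same summits. Placing the promoter windows on the TSS itself gave 151 words more frequent and 121 less frequent in place of 0 and 2. Some other settings called 1 to 5 words more frequent. These were core limits of 25 or 100 bp and TSS distances of 250 or 1000 bp. Signals of 20 or more and the list of replicate 1 were the others. The core limit changed which windows were taken, and words were still counted within 50 bp.

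**Figure D5:**
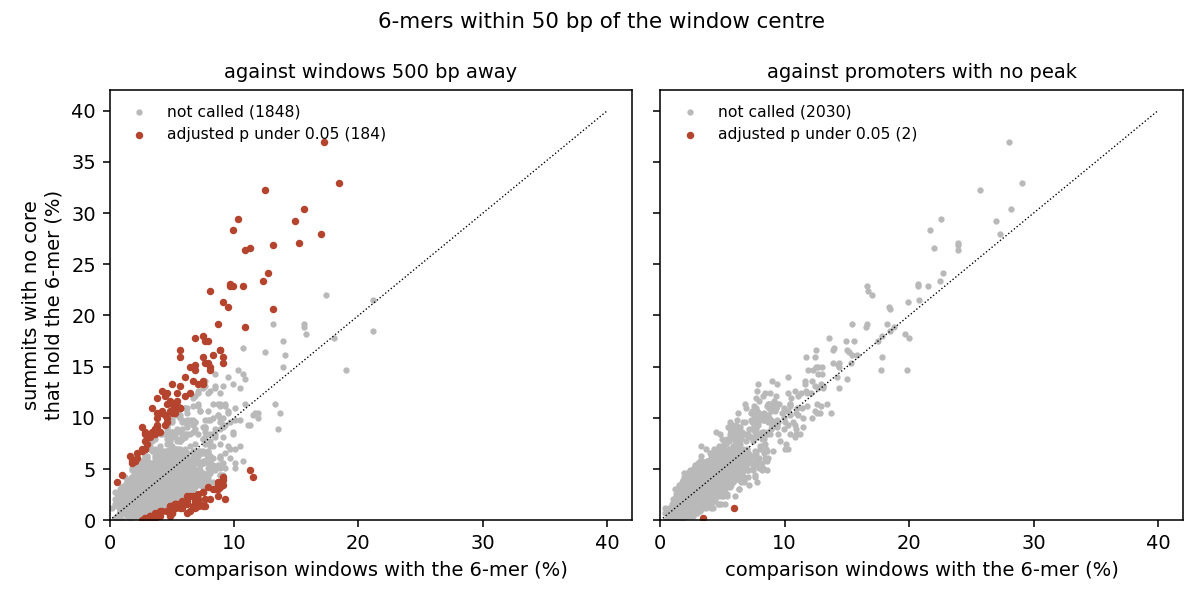
Share of summits without a core that hold each 6-mer within 50 bp (vertical axis, %) against its share in comparison windows (horizontal axis, %), for windows 500 bp away and for promoters with no peak, with the dotted line where both are equal. Red marks an adjusted p under 0.05 in Fisher's exact test, 184 words in the first comparison and 2 in the second.

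The words closest to a call were GATTAG, a one-letter variant of the GATA site GATAAG, and AAAATA, which shared 1 adjusted p. AAAATA was in 36.9% of summit windows and in 28.0% of promoters with no peak (adjusted p = 0.0631 in Fisher's exact test). GATTAG was in 31 of 428 summit windows (7.24%) and in 3.27% of promoters with no peak, 2.21 times as often (adjusted p = 0.0631 in Fisher's exact test). Over 12 alternative settings its adjusted p ran from 3.45e-04 to 0.714 and passed 0.05 in 5, and the ratio stayed between 1.63 and 2.76. Among the strongest such windows outside exons were those at C3G (a guanine nucleotide exchange factor for Rap1), chb (the microtubule-binding protein CLASP) and papi (a Tudor-domain protein of the piRNA pathway). They were chosen after their values were seen, and capitals mark GATTAG on either strand.
C3G, chrX:6800920-6801020, plus strand: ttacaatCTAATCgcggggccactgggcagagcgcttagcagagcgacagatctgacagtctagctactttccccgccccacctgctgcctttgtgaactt
chb, chr3L:21172574-21172674, plus strand: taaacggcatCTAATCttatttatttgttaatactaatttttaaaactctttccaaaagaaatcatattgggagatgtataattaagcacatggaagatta
papi, chr2L:2221732-2221832, plus strand: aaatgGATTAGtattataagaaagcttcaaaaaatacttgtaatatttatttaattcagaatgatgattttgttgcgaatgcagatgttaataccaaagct
C3G had a signal of 238, with 122 and 114 in the replicates, chb 179, with 102 and 68.5, and papi 161, with 83.7 and 79.1. No core stood at either replicate's own summit at any of these 3. In each of these windows GATTAG lay nearer to the edge than to the summit at the centre.

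The one-letter variants of the site gave no uniform direction. Of the 12 words that differ from GATAAG by one letter inside the core, GATTAG included, 7 were more frequent at the summits than at promoters with no peak and 0 were called. Of all words tested, 47.9% were more frequent. Their median ratio was 1.06, beside 0.983 over all words. CATAAG was at 6.31% and 3.29% (Fisher's exact test, adjusted p = 0.194). GATGAG was lower, at 0.467% and 2.61% (exact test, adjusted p = 0.194).

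As 4-letter words, GATT was at 65% (60.4 to 69.4%) of the 449 summits and at 58.7% (57.3 to 60.0%) of promoters with no peak. It was at 60.6% (57.5 to 63.5%) of summits with a core and 59.6% (55.1 to 64.0%) of windows 500 bp away. Of all promoters it was at 60.6% (59.8 to 61.5%), and these intervals overlap that of the summits without a core. GATG was at 33.9% (29.5 to 38.4%) against 39.2% (37.9 to 40.5%). GATC was at 15.6% (12.4 to 19.3%) against 18.2% (17.2 to 19.3%).

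Core-promoter and architectural words, searched on both strands, gave these shares. TATAAA stood at 21.8% (18.1 to 25.9%) of summits without a core, 16.6% (14.4 to 19%) with one, and 18.2% of all 13968 protein-coding promoters. Promoter windows were placed at the summits' median position of -102 bp, but the summits were spread. Within 50 bp of the TSS lay 15.4% of those without a core and 19.9% of those with one. The shares of these words are thus compared over unlike positions. The initiator word TCAGT stood at 16.7% (13.4 to 20.5%), 23.3% (20.8 to 26%) and 16.4%. The GAGA factor word GAGAG stood at 12.2% (9.36 to 15.6%), 12.5% and 13.4%. The Polycomb recruiter Pho's word GCCAT stood at 16.9%, 16.6% and 15.4%. The E-box CAGCTG was at 5.57%, 4.61% and 4.94%. Motif 1 of housekeeping promoters (GGTCACACT) was at 3 summits (0.668%, 0.138 to 1.94%), against 0.960% with a core and 0.995% of all promoters.

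The word of Zelda, the activator of the early zygotic genome, CAGGTAG, was at 1 summit (0.223%, 0.00564 to 1.23%), against 0.288% with a core and 0.651% of all promoters. That of the epithelial factor Grainy head, ACCGGTT, was at none of the 449, which allows up to 0.818%, and stood at 0.823% of all promoters. A match is not a site, and no match says only that the letters were not in the window.

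A pair of promoter words hold GATA within themselves and so could not occur at the 449. The DRE, TATCGATA, was at 3.26% of summits with a core and 2.53% of all promoters. CGATA, the word of the boundary protein BEAF-32, was at 36.7% (33.7 to 39.7%) and 20%. Summits with a core were chosen for holding GATA, so the like set in that respect is the 7482 promoters whose window held a core. There the DRE was at 4.72% (4.25 to 5.22%) and CGATA at 37.3% (36.2 to 38.4%). Removing summits with CGATA leaves 660 of the 1042 with a core.

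By gene, 548 of 13968 protein-coding genes had a summit without a core within 500 bp of one of their TSSs (3.92%), 1148 had one with a core (8.22%), and 99 had both. Neighbouring genes can share a summit, so a listed gene need not be the one nearest to its summit. The lists below were named by symbol, and their counts are descriptions.

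Of 19 transcription factors of the endoderm and midgut, 3 (15.8%) had a summit without a core and 4 (21.1%) had one with a core, beside 3.92% and 8.22% of all genes. The 3 were Ptx1 (a Pitx-family homeodomain factor), cad (the posterior homeodomain factor Caudal) and lab (the Hox factor Labial, needed for midgut copper cells). Because these are the members of that list among the summits, 141 bp of each are printed, with capitals on GATA.
Ptx1, chr3R:30912521-30912661, plus strand: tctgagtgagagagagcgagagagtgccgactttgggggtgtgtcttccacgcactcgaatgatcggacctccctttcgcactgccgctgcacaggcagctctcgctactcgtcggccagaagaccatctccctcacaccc
cad, chr2L:20770508-20770648, plus strand: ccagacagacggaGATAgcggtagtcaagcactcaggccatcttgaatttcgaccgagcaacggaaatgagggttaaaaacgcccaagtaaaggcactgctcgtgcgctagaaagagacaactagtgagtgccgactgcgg
lab, chr3R:6678620-6678760, plus strand: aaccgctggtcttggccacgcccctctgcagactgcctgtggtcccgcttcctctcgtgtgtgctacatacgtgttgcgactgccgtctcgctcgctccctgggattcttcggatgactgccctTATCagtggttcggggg
At Ptx1 the signal was 280, with 129 in replicate 1 and 151 in replicate 2, and the nearest core lay 102 bp away. At cad it was 143, with 59.8 and 80.2, and replicate 1's own summit held a core. At lab it was 120, with 60.7 and 60.4. At Ptx1 and cad the replicate 2 value was the higher of the pair. These held more G and C than the strong windows printed first, at 61.4, 48.5 and 61.4%.

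Of 3 genes of the smooth septate junction, the seal between midgut cells, mesh had a summit without a core and 2 had one with a core. The mesh summit, 24 bp upstream of the TSS, had a signal of 299, with 147 and 149 in the replicates. Its nearest core ended 68 bp away, and replicate 1's own summit there held a core. None of the 49 digestive enzyme genes had a summit without a core, and 6 (12.2%) had one with a core. None of the 5 GATA factor genes had one without a core, and 3 had one with a core. Of all genes, 3.92% and 8.22% did, and at 3.92% lists this short can hold none.

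Of the housekeeping lists, the 92 genes of cytosolic ribosomal proteins had 12 (13.0%) with a summit without a core and 18 (19.6%) with a core, beside 3.92% and 8.22% of all genes. Signals in the 12 ran from 43.0 to 259, led by RpL34b (259), RpS27 (178) and RpL7 (148). The nearest TSS to the RpL34b summit was that of CG8132, 109 bp away. The replicate values at RpS27 were 103 and 69.6, and at RpL7 66.7 and 72.7. Mitochondrial ribosomal proteins had 4 of 73 (5.48%), led by mRpL20 (150), mRpL53 (109) and mRpL32 (104), and 9 (12.3%) with a core. The mRpL20 summit was nearest to the TSS of Icmt, 171 bp away.

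Oxidative phosphorylation had 2 of 87, ND-ASHI (165) and ND-51 (63.4), both of complex I. The vacuolar ATPase had 3 of 33, Vha100-5 (121), Vha100-2 (121) and Vha68-1 (89.7). Aminoacyl-tRNA synthetases had 3 of 32, SerRS (131), IleRS (94.5) and ArgRS (64.3). The proteasome had 0 of 48 and the CCT chaperonin 0 of 8. Translation initiation factors had 1 of 44, eIF4EHP. In the same order, the counts with a core were 3, 1, 1, 1, 0 and 4. The shares without a core ran from 0 to 9.38%, beside 3.92% of all genes. At 3.92%, lists this short hold few such genes or none.

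In the transcription machinery, TFIID and the general factors had 3 of 25, Taf1 (121), TfIIA-L (110) and Taf2 (106). Mediator had 1 of 25, MED30 (114). The spliceosome had 3 of 33, U2af50 (120), Sf3b6 (67.7) and snRNP-U1-C (12.3). Of 19 matched architectural and promoter-binding proteins, 2 had one, the insulator protein Cp190 (146) and Trl (124), the GAGA factor itself. The counts with a core were 2, 3, 2 and 3 in the same order. Of all genes, 3.92% had a summit without a core and 8.22% had one with a core. Lists this short hold few such genes or none at 3.92%, so these counts are descriptions only.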

How the data were processed

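Peak lists were analysed from ChIP-seq of 2 biological replicates. The authors deposited a signal value per peak in every list, on dm6, per the file headers' record, comparable within a list only. The aligner was not given in the sources used here, nor was the peak caller. Read depth is unknown, so exact (Clopper-Pearson) 95% intervals cover counting error only. The control experiment named in the labels was not used here.

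The main list was the conservative one, thresholded by the irreproducible discovery rate, which pairs the replicates. It had 3047 peaks, of which 3032 were on the chromosome arms. A peak of a replicate was matched by at least 1 bp, taking the nearest summit. TSSs came from Ensembl release 115 without pseudogenes and transposable elements, and sequence from RefSeq's dm6 copy. Of 30618 start codons, 99.8% read ATG there, and 0 peaks passed a chromosome end. Coordinates are 1-based.

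Each 6-mer was tested on 428 summits, with 48 words that hold GATA left out of 2080. Windows 500 bp away were dropped if within 150 bp of another summit. Neighbouring peaks are not independent, and the test treats them as if they were. Genes named are those of the 20 strongest summits, up to 3 per gene list by signal, and those at the limits of the rule. Sequences were printed in order of signal for windows that touched no annotated exon and were not on arm 2R, and no summit with Motif 1 met these conditions. The summits and lists were chosen with earlier results of these data known. The word test was checked on simulated data.

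Alternatives were other lists, windows, GATA words, TSS distances, annotations, backgrounds and overlap rules. Python 3.11.15 was used with pandas 2.3.3, scipy 1.17.1, matplotlib 3.10.9 and numpy 2.4.6.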

Additional observations from a re-analysis of the deposited data

How the results depend on the processing

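Of 105 recomputed values, 76 stayed close and 29 moved. Close means a share inside the 95% interval of the reported one, a ratio of medians within the SD of the 2 replicates' ratios (0.0891), or a count within 1.5 times. The share without a core was 52.9% with a 25 bp window, 12.9% with 100 bp and 58.4% with WGATAR as the word. In the upper 50% by signal the ratio of medians was 1.10 and support by both replicates 77.3%. With each replicate's own list, words more frequent than in windows 500 bp away numbered 61 to 99, less frequent ones 23 to 79, own summits without a core 69.3 to 73.1%, and genes 345 to 534. Less frequent words numbered 47 in the upper 50%, 187 with 25 bp and 0 with 100 bp, where more frequent ones numbered 10. The 25 and 100 bp settings changed the limit for the core, and words were still counted within 50 bp.

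Against promoters with no peak, more frequent words numbered 0 to 1 and less frequent ones 0 to 1 with each replicate's list. More frequent words were 5 with 25 bp, 1 with 100 bp, 3 with a TSS distance of 250 bp, 5 with 1000 bp, 3 with signals of 20 or more and 151 at the TSS. Less frequent ones were 0 in the upper 50%, 1 with 25 bp, 0 with 100 bp, 0 with every peak and 121 at the TSS. Summits without a core at both replicates' own summits were 71.1% with 1 summit per merged place and 70.4% with signals of 20 or more, a setting chosen after seeing the data. The causes were not tested, and that includes the smaller number of peaks in the shorter lists.

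GATTAG had an adjusted p of 3.45e-04 with 25 bp, 0.0221 and 0.00432 with TSS distances of 250 and 1000 bp, 0.00178 at the TSS and 0.0440 with signals of 20 or more. No paired analysis was possible because there is 1 group. Depth is unknown and no control was used, so strength could not be set against background.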
